A study of Homo sapiens with 12 samples.

Results

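The libraries described here are the 4 of the 12 in the series that came from p65-deficient HCT116 cells treated with CPT or with no inhibitor. They form 2 matched pairs: CPT against no inhibitor without TNFα, and CPT against no inhibitor with TNFα for 1 h. All 4 were chosen by their labels, with earlier results of these data known. HCT116 is an established colon cancer cell line. The p65-deficient cells are 1 single-cell clone, clone 32, made per the study's methods with CRISPR-Cas9 and a guide RNA against p65. The deposited treatment labels call it shRNA p65 instead. CPT was given at 5 µM for 2 h, and TNFα at 20 ng/mL was then added for 1 h to the second pair. By that order the pairs may also differ in total time in CPT, which the labels give as 2 h for both. The 4 WT libraries with the same treatments serve for comparison, as do, in places, the ICRF193 libraries of the same clone (5 µM, 2 h). Every condition has 1 library, so the 2 pairs stand in for replicates. The p-values rest on the spread between pairs that also differ in TNFα, estimated with help from all genes together. A call alone therefore does not show that both pairs of a gene agree. The comparison asks which part of the transcriptional response to CPT is seen in cells without p65.

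CPT (camptothecin) traps topoisomerase 1 (TOP1) on DNA after it has cut 1 strand. TOP1 normally relaxes the supercoils that form ahead of and behind a moving RNA polymerase, so the drug impedes elongation, and a replication fork that meets a trapped enzyme yields a double-strand break. p65, encoded by RELA, is the NF-κB subunit that activates most genes induced by TNFα. Once IκB proteins are degraded, p65 enters the nucleus and binds κB sites. Other transcription factors that respond to stress, among them AP-1, serum response factor and p53, act through sites of their own.

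The pair without TNFα was sequenced more deeply, with 20524958 reads counted in genes without CPT and 18502365 with CPT, than the pair with TNFα, with 8101212 and 8154407 reads. Depth was thus close within each pair and differed between the pairs. Normalized counts are reads divided by a size factor per library, which DESeq2 estimated from the 12 libraries together. Where 2 values are given for a treatment, the first is from the library without TNFα and the second from the library with TNFα. Values in rows of 4 run from no inhibitor to CPT without TNFα and then from no inhibitor to CPT with TNFα. RELA, the targeted gene, stood at 548 and 573 without CPT and 673 and 643 with CPT (normalized counts), against 908 and 882 without and 694 and 727 with CPT in WT cells. The clone's 4 values were all lower than the 4 WT values, but a count over the whole gene does not show whether the transcripts encode p65. The study describes this clone as lacking p65, from experiments other than these counts. NFKBIA, which encodes IκBα and is induced by p65, went from 1030 to 1122 with TNFα in the clone, and from 909 to 8758 in WT cells, both without inhibitor. The large difference between the WT libraries was not seen between those of the clone.

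HCRTR1 had 193 reads in the library of the clone with neither inhibitor nor TNFα and at most 29 in each of the other 11 libraries, so its fold change rests on 1 library and is not interpreted. Epithelial markers were present in all 4 libraries: KRT8 had 22434 and 19689 without CPT and 27431 and 23918 with CPT, and KRT18, KRT19 and EPCAM were abundant as well, while CEACAM5 had no read and VIL1 and LGALS4 had at most 13. Among 12 markers of other cell types, CD3E, COL1A2, COL3A1 and DCN had no read in any of the 4 libraries and PTPRC at most 1, PECAM1 and PDGFRB at most 3. Their summed normalized counts were 408.3 and 406.1 without CPT and 606.3 and 595.4 with CPT, mostly CD68 and COL1A1. The part of this difference in the results below was not tested.

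CPT raised FOS, SGK1 and most immediate early genes and lowered replication-dependent histone genes and MYC, and the calls covered 7216 of the 13700 genes tested. In the edgeR quasi-likelihood test on the 4 libraries, with TNFα as a term, 3390 of 13700 genes were raised and 3826 were lowered at an adjusted p below 0.05 (24.7% and 27.9%). Past 2-fold there were 710 raised and 720 lowered genes (5.18% and 5.26%). The median log2 fold change over all genes was 0.00, a value that the scaling of the libraries places near 0. Raised and lowered are thus relative to the other genes, and a change in total RNA would not be seen. DESeq2's Wald test called 1271 raised and 1879 lowered. Fits without 1 pair kept the other pair and the 4 WT libraries. Their spread came from WT cells only, so their calls are not counted here. Within single pairs, 773 of 13455 genes (5.75%) were more than 2-fold higher with CPT and 714 (5.31%) more than 2-fold lower without TNFα, and 411 (3.37%) and 689 (5.66%) of 12179 genes with TNFα. In both pairs at once, 305 genes were more than 2-fold higher and 477 more than 2-fold lower. Over the 11172 genes with a mean of at least 50 reads, the log2 ratios of the 2 pairs correlated with Pearson's r of 0.903 and Spearman's rho of 0.844, a description across genes. Of the 6281 called genes among these, 6242 had the same direction in both pairs.

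**Figure D1:**
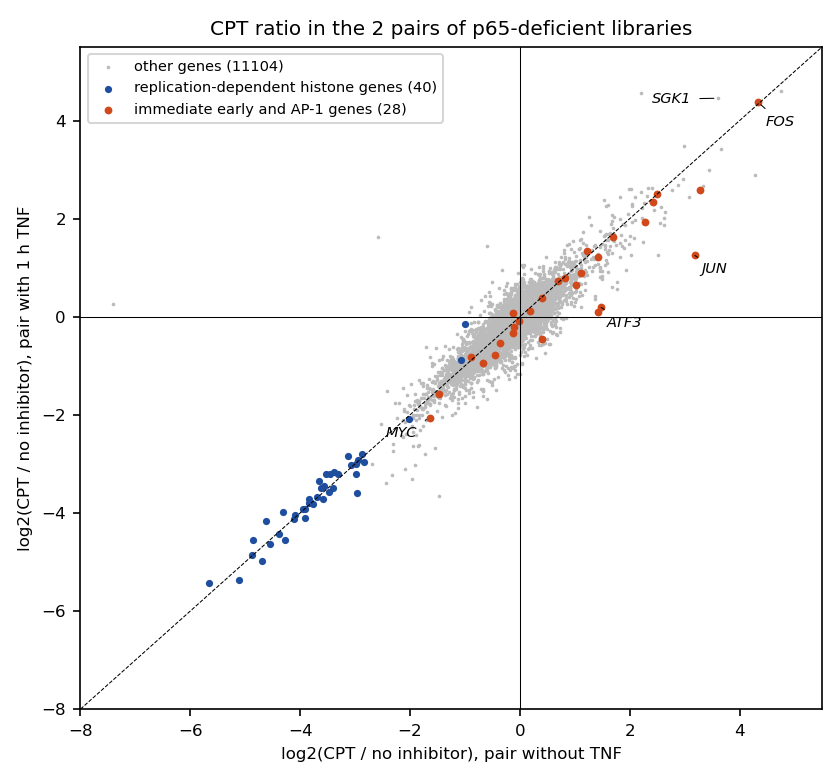
Log2 ratio of CPT to no inhibitor in the pair without TNFα (x axis) and with 1 h of TNFα (y axis), for the 11172 genes with a mean of at least 50 reads over the 4 p65-deficient libraries, 1 point a gene; the dashed line marks equal ratios. Replication-dependent histone genes lie along the line at the lower left and FOS at the upper right, and JUN and ATF3 fall below the line.

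Immediate early genes, which are transcribed within minutes of a stimulus without new protein synthesis and encode mostly AP-1 and other transcription factors, were the list with the highest median. Of 31 tested, 19 were raised and 7 lowered (61.3% and 22.6%, beside 24.7% and 27.9% of all genes), and the median log2 fold change was 0.84 against 0.00 over all genes (0.92 in the pair without TNFα, 0.51 with). The median of the list was 0.13 in WT cells. FOS, the AP-1 partner of JUN, had normalized counts of 93.3 and 93.5 without CPT and 1878 and 1945 with CPT. The 2 libraries with CPT were about equally high and the 2 without about equally low (log2 fold change 4.33 ± 0.09, adjusted p = 4.32e-31). FOSB, a second FOS family member, stood at 40.0 and 68.0 without CPT and 390.1 and 409 with CPT (log2 fold change 3.0 ± 0.15, adjusted p = 6.8e-19). EGR1, a zinc finger factor, had 70.9 and 68.0 without CPT and 401 and 388 with CPT (log2 fold change 2.49 ± 0.13, adjusted p = 2.97e-18), and its relative EGR2 rose from 4 to 51 and from 1 to 35 reads (log2 fold change 4.13 ± 0.46, adjusted p = 1.74e-09). EGR3, with 3, 33, 0 and 25 reads, gave 4.25 ± 0.59 (adjusted p = 1.52e-07). JUNB had 1120 and 1138 without CPT and 3647 and 3525 with CPT (log2 fold change 1.66 ± 0.05, adjusted p = 1.98e-25). CYR61 (2.13 ± 0.09) and CTGF (2.38 ± 0.17), matricellular proteins controlled through serum response factor and YAP, both rose (adjusted p = 2.01e-20 and 6.28e-14). In each of these genes both CPT libraries exceeded both libraries without inhibitor.

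The promoters of EGR1 and EGR2 are shown because both genes rose in both pairs and their upstream sequence holds the letters of the CArG box, the core of the serum response element. The windows come from RefSeq promoters on GRCh38.p14, run 5′ to 3′ on the gene's strand, and carry the CArG box in capitals. Of the 19 raised immediate early genes only 15 had a promoter in the table used, so no share is given for them. On both strands, 1.29% of the 35116 promoters in the table (250 bases before to 50 after the start) hold a CArG box. A match is a description of the letters only.
EGR1, chr5:138465364-138465393, plus strand, CArG box starting 105 bases before the start: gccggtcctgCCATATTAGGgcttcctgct
EGR1, chr5:138465386-138465415, plus strand, CArG box starting 83 bases before the start: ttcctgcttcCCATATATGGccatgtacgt
EGR2, chr10:62816418-62816447, minus strand, CArG box starting 71 bases before the start: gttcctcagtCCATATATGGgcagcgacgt

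Not every gene of the list rose. MYC, the growth-promoting transcription factor, had 9571 and 10528 without CPT and 3079 and 2528 with CPT (log2 fold change -1.84 ± 0.05, adjusted p = 4.72e-26). MCL1, an anti-apoptotic BCL2 relative with a short-lived transcript, stood at 3124 and 3424 without CPT and 1120 and 1146 with CPT (log2 fold change -1.54 ± 0.05, adjusted p = 4.58e-24). FOSL1 (-0.59 ± 0.07), FOSL2 (-0.88 ± 0.10), JUND (-0.45 ± 0.06), ZFP36L1 (-0.80 ± 0.07) and IER3 (-0.23 ± 0.04) were also lowered. SRF itself did not pass the test (log2 fold change 0.14 ± 0.06, adjusted p = 0.0702). In MYC and MCL1 both CPT libraries lay far below both others, and MYC fell more in WT cells (-2.87, difference 0.99 ± 0.10, adjusted p = 1.53e-05).

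**Figure D2:**
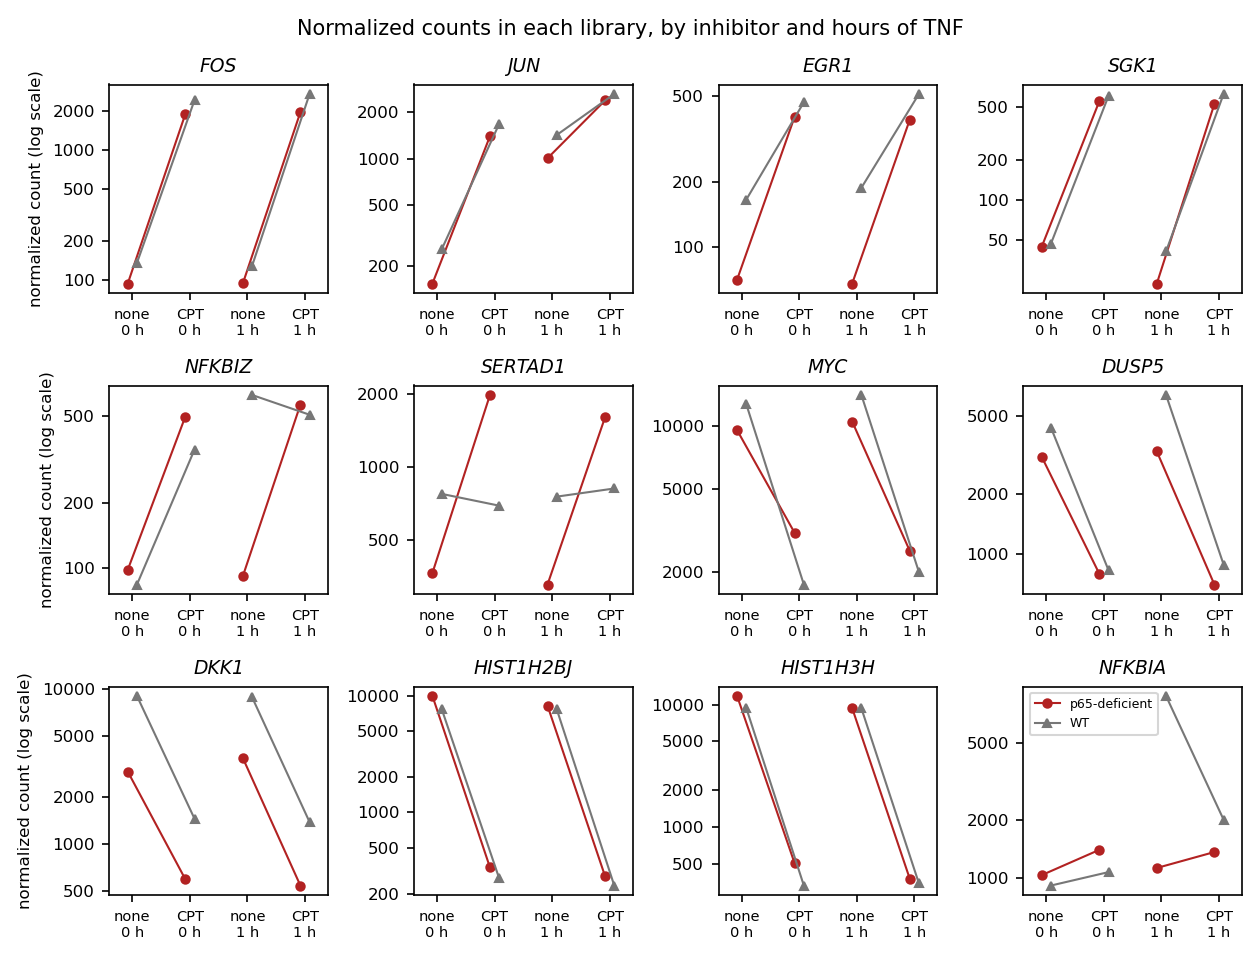
Normalized counts on a log axis for 12 genes in each library, by inhibitor and hours of TNFα; red circles are p65-deficient and grey triangles WT libraries, and each line joins the libraries of 1 pair (1 library per point, no error bar). FOS, EGR1, SGK1, NFKBIZ and SERTAD1 rise with CPT in both red pairs, MYC, DUSP5, DKK1 and both histone genes fall, and NFKBIA of WT cells with TNFα is high only without CPT.

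Of 18 tested ERK feedback and EGFR ligand genes, 5 were raised and 9 lowered (27.8% and 50%, beside 24.7% and 27.9% of all genes), so that the raised share was near that of all genes, with a median of -0.38. The ligand gene HBEGF stood at 188 and 149.5 without CPT and 770.1 and 719 with CPT (log2 fold change 2.09 ± 0.09, adjusted p = 2.7e-20), whereas EREG, another ligand gene, stood at 8647 and 10549 without CPT and 4729 and 5289 with CPT (log2 fold change -0.95 ± 0.04, adjusted p = 4.08e-20). DUSP1, a nuclear phosphatase of p38 and JNK, had 196 and 342 without CPT and 799.8 and 822 with CPT (log2 fold change 1.70 ± 0.10, adjusted p = 2.92e-16), with the smaller ratio under TNFα. DUSP5 and DUSP4, phosphatases of ERK, fell (-2.09 ± 0.06 and -1.09 ± 0.04). DUSP5 went from 3102 to 792 and from 3303 to 698 normalized counts. ERRFI1, an inhibitor of the EGFR kinase, had 8743 and 10119 without CPT and 2631 and 2836 with CPT (log2 fold change -1.80 ± 0.04, adjusted p = 2.31e-30). Both CPT libraries were below both others for DUSP5, DUSP4 and ERRFI1.

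The genes raised most, with at least 50 reads on average, were CCDC168, FOS, SGK1, TCTEX1D4, BTBD19, KIAA1875, SNX32 and LINC00273. SGK1, a kinase induced by serum and glucocorticoids (hg19 chr6:134490384-134639196), had 44.9 and 23.8 without CPT and 547 and 522 with CPT (log2 fold change 3.80 ± 0.14, adjusted p = 1.89e-22). CCDC168, a coiled-coil gene at chr13:103381717-103411422, had 7.7 and 8.5 without CPT and 209 and 206 with CPT (log2 fold change 4.67 ± 0.24, adjusted p = 1.45e-18). TCTEX1D4 (3.69 ± 0.21) and BTBD19 (3.55 ± 0.21) lie beside PLK3 on chromosome 1: TCTEX1D4 overlaps it on the opposite strand and BTBD19 begins 2487 bases past its end. PLK3, a stress-responsive kinase, itself went from 640.5 to 1249 and from 658 to 1189 (log2 fold change 0.91 ± 0.07, adjusted p = 1.01e-13). KIAA1875 (3.29 ± 0.19) lies 114 bases from MAF1, and SNX32 (3.08 ± 0.27) 1113 bases from CFL1, which had a mean of 13481 normalized counts without inhibitor. LINC00273 (3.07 ± 0.08) shares sequence with other loci, so its count is uncertain, as are those of MIR663AHG (15398, 86927, 8224 and 35109 reads) and ANKRD30BL (14502, 77190, 6776 and 31029), which were picked after their values were seen.

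Genes raised past 2-fold were mostly of low level. Without inhibitor their median was 10.8 normalized counts, against 402 for all tested genes and 322 for those lowered past 2-fold, and 617 of the 710 had at most 50. This level is also the denominator of the fold change, and a gene could enter the test through its CPT reads alone. Part of the contrast in level, and of the grouping by it below, was thus fixed beforehand. The raised genes had a median genomic span of 5.91 kb, against 25.4 kb for all tested genes. Among those with at most 50 normalized counts and 1 locus, 439 of 601 (73.0%) lay within 5000 bases of, or overlapped, a gene at least 10 times more abundant, compared with 1219 of 2508 (48.6%) of all tested genes of that level and 64 of 132 (48.5%) of those lowered. That neighbour was on the opposite strand for 302 of the 439 and for 840 of the 1219, close to equal shares. Counting ignored strand, so reads of a neighbour that run over a gene cannot be told apart from its own, and the part of neighbouring transcription in these rises was not tested.

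Replication-dependent histone genes gave the largest falls. These genes supply the histones of newly copied DNA, are transcribed in S phase and end in a stem-loop in place of a poly(A) tail, and the library kit took total RNA. Of 73 listed, 45 were tested, 44 were lowered and 42 fell past 2-fold. The lowered share was 97.8%, beside 27.9% of all genes, of which 5.26% fell past 2-fold. The median log2 fold change was -3.63, and it was -3.63 and -3.64 in the single pairs. Summed over the list, normalized counts went from 259294 to 23301 without TNFα and from 218681 to 20683 with TNFα. HIST1H2BM, an H2B gene, had 4673 and 3973 without CPT and 92.9 and 92.5 with CPT (log2 fold change -5.59 ± 0.08, adjusted p = 6.99e-37). HIST1H3J, an H3 gene, had 8238 and 6681 without CPT and 239 and 162 with CPT (log2 fold change -5.20 ± 0.06, adjusted p = 8.45e-39). HIST1H2BJ went from 9945 to 338 and from 8219 to 285. The linker histone gene HIST1H1C, the most abundant of the 8 genes lowered most, had 22258 and 18860 without CPT and 1064 and 875 with CPT (log2 fold change -4.42 ± 0.06, adjusted p = 4.39e-36). All 8 genes lowered most, with at least 50 reads on average, were histone genes, with HIST3H2BB, HIST1H2BF, HIST1H3H and HIST1H2BL between -4.78 and -4.49. The 1 histone gene raised, HIST1H4K, had 8, 18, 4 and 9 reads, and the least lowered ones were HIST1H4C (-1.0 ± 0.05) and HIST1H3E (-0.73 ± 0.17).

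Histone genes made outside S phase behaved differently. Of 10 replication-independent histone genes tested, 7 were raised and 2 lowered (70.0% and 20.0%, beside 24.7% and 27.9% of all genes), with a median of 0.20. H2AFJ had 140.3 and 131 without CPT and 385 and 438 with CPT (log2 fold change 1.54 ± 0.11, adjusted p = 5.14e-14). H3F3B (0.31 ± 0.06) and H2AFZ (0.34 ± 0.04) rose by less, and CENPA, the centromeric H3 variant, fell (log2 fold change -0.76 ± 0.09, adjusted p = 1.48e-08). H2AFX, made in both ways, fell by 0.27 on the log2 scale. SLBP, which binds the histone stem-loop, had 2803 and 2749 without CPT and 2112 and 2301 with CPT (log2 fold change -0.36 ± 0.05, adjusted p = 9.44e-08).

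Sequence just upstream of 3 of the most lowered histone genes is shown, because members of this list moved together and most of their promoters hold TATAAA. These 3 were chosen for having it 28 to 32 bases before the start, and HIST1H2BM, the gene lowered most, held it only 219 bases before the start on the other strand, while HIST3H2BB and HIST1H1C had no match in the 250 bases before it. Capitals mark a TATA box, again on GRCh38.p14 and 5′ to 3′ on the gene's strand. Promoters were found for 37 of the 44 lowered histone genes. TATAAA, searched on both strands, was in 25 of the 37 (67.6%) against 11.5% of all 35116 promoters, and CCAAT in 32 (86.5%) against 34.6%. The CRE letters TGACGTCA were in 6 (16.2%) against 1.85%, the CArG box in 2 (5.41%), and neither the AP-1 letters TGANTCA (7.71% of all promoters) nor the NF-κB consensus (11.3%) was in any.
HIST1H2BJ, chr6:27132806-27132835, minus strand, TATA box starting 28 bases before the start: taagcgattctaTATAAAagcgccttgtca
HIST1H3H, chr6:27810007-27810036, plus strand, TATA box starting 32 bases before the start: tcagactctcacTATAAAtaagcggctagc
HIST1H2BL, chr6:27807942-27807971, minus strand, TATA box starting 30 bases before the start: cataaactattaTATAAAaagaggagaccg

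Outside the histone genes, BDNF and MAP3K14 are described, both picked after their values were seen. BDNF, a neurotrophin gene, had 1402 and 1558 without CPT and 218 and 194 with CPT (log2 fold change -2.81 ± 0.08, adjusted p = 6.57e-26). MAP3K14, which encodes the NF-κB-inducing kinase NIK, had 449.7 and 586 without CPT and 89.7 and 62.9 with CPT (log2 fold change -2.63 ± 0.13, adjusted p = 1.88e-18). Their levels with CPT were low at both TNFα times.

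Of 7 Wnt target and feedback genes tested, 4 fell, 1 rose and 2 did not pass (57.1% lowered and 14.3% raised, beside 27.9% and 24.7% of all genes), and the median was -1.11. DKK1, a secreted Wnt antagonist, had 2930 and 3585 without CPT and 593 and 539.5 with CPT (log2 fold change -2.49 ± 0.07, adjusted p = 3.56e-27). ZNRF3 (log2 fold change -2.06 ± 0.13, adjusted p = 4.46e-16) and RNF43 (log2 fold change -1.71 ± 0.10, adjusted p = 3.48e-17), ubiquitin ligases that remove Wnt receptors, and AXIN2 (log2 fold change -1.11 ± 0.14, adjusted p = 3.83e-08), a scaffold of the β-catenin destruction complex, fell in both pairs. RNF43 went from 591 to 189 and from 598 to 173 normalized counts. The gene raised was TCF7 (log2 fold change 0.28 ± 0.12, adjusted p = 0.0491), while 6 of the 13 listed were too low to test.

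The ID and TGF-β feedback genes divided into 3 raised and 7 lowered of 11 (27.3% and 63.6%, beside 24.7% and 27.9% of all genes). BAMBI, a decoy receptor of TGF-β signalling, had 114 and 98.6 without CPT and 290.3 and 267 with CPT (log2 fold change 1.36 ± 0.13, adjusted p = 2.47e-11), and ID2 and ID3, inhibitors of bHLH factors, rose by 1.01 ± 0.07 and 0.94 ± 0.07. Their relative ID1 moved the other way, from 4912 to 2729 and from 3983 to 2340 (log2 fold change -0.83 ± 0.04, adjusted p = 2.88e-18). TGIF1, a SMAD corepressor, had 2210 and 2109 without CPT and 566 and 449 with CPT (log2 fold change -2.08 ± 0.07, adjusted p = 1.64e-24). SMURF1 (-1.30 ± 0.08) and SMAD6 (-1.24 ± 0.11) fell also.

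Zinc finger genes of chromosome 19, most of them KRAB repressors in gene clusters, were mostly lowered. Of 158 tested, 112 fell and 8 rose (70.9% and 5.06%, beside 27.9% and 24.7% of all genes), with a median of -0.72 and 52 past 2-fold lower. ZNF566 (-2.18 ± 0.25), ZNF114 (-2.10 ± 0.18), ZNF254 (-2.05 ± 0.28) and ZNF627 (-1.99 ± 0.13) fell most among those with at least 20 reads on average. ZNF627 went from 375 to 107 and from 416 to 83.8 normalized counts. ZFP36, which the symbol pattern of the list takes in, is an mRNA-decay factor and rose (0.97 ± 0.09).

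Among 34 regulators of RNA polymerase II elongation, 9 were raised and 15 lowered (26.5% and 44.1%, beside 24.7% and 27.9% of all genes), and the median was -0.06. ELL, which speeds elongation, had 492 and 486 without CPT and 143 and 133 with CPT (log2 fold change -1.83 ± 0.11, adjusted p = 8.67e-17). The P-TEFb cyclin genes CCNT2 (-1.20 ± 0.08) and CCNT1 (-0.87 ± 0.05) and BRD2 (-0.67 ± 0.04) fell, while the kinase gene CDK9 rose slightly (log2 fold change 0.19 ± 0.07, adjusted p = 0.016). Of the SR splicing factors and their kinases, 3 of 14 rose and 3 fell (21.4% each, below both shares of all genes). The falls were CLK1 (-1.20 ± 0.08), CLK4 (-0.89 ± 0.13) and SRSF4 (-0.42 ± 0.06), the first going from 882 to 424 and from 1065 to 409. In the topoisomerase list, 5 of 12 rose and 4 fell (41.7% and 33.3%). TOP1, the target of the drug, stood at 1766 and 1944 without CPT and 2086 and 2172 with CPT (log2 fold change 0.19 ± 0.05, adjusted p = 0.00227), and TOP2A (-0.28 ± 0.04), TOP3A (-0.58 ± 0.07) and TOP3B (-0.44 ± 0.08) fell.

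Of 28 tested targets of p53, 14 were raised and 9 lowered (50% and 32.1%, beside 24.7% and 27.9% of all genes), the lowered share lying near that of all genes, with a median of 0.10. BTG2, an antiproliferative regulator, had 346 and 321 without CPT and 1476 and 1252 with CPT (log2 fold change 2.03 ± 0.07, adjusted p = 6.44e-23) and was the only member past 2-fold. PLK3 (0.91 ± 0.07) and the BH3-only gene PMAIP1 (log2 fold change 0.76 ± 0.07, adjusted p = 3.59e-11) rose. In WT cells the log2 fold changes were 0.40 for BTG2, -0.02 for PLK3 and 0.04 for PMAIP1. By the test of the difference between lines, 7 of 28 p53 targets were higher in the clone and 0 lower, beside 2.39% and 2.38% of all genes. CDKN1A, which encodes p21, had 2283 and 2122 without CPT and 2690 and 2338 with CPT (log2 fold change 0.18 ± 0.05, adjusted p = 0.00231). AEN, an apoptosis-enhancing nuclease (log2 fold change -0.97 ± 0.06, adjusted p = 2.84e-16), and MDM2, the ubiquitin ligase of p53, fell, MDM2 from 3499 to 2340 and from 4094 to 2591 (log2 fold change -0.63 ± 0.04, adjusted p = 1.56e-14).

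NF-κB target genes are those that p65 normally drives. Of 27 tested, 10 were raised, 6 lowered and 11 did not pass (37.0% raised and 22.2% lowered, beside 24.7% and 27.9% of all genes), with a median of 0.09. NFKBIZ, a nuclear IκB-like coactivator, had 98.2 and 91.8 without CPT and 497 and 564 with CPT (log2 fold change 2.42 ± 0.11, adjusted p = 2e-19). ZC3H12A, an RNase that degrades inflammatory transcripts, had 224 and 248 without CPT and 576 and 519 with CPT (log2 fold change 1.24 ± 0.10, adjusted p = 1.79e-13). ZFP36 rose from 278 to 526 and from 299 to 646, and NFKBIA by 0.35 ± 0.06 (adjusted p = 1.33e-05). ICAM1 (15, 30, 7 and 14 reads, log2 fold change 1.09 ± 0.39, adjusted p = 0.018) and the chemokine gene CXCL2 (12, 28, 6 and 8 reads, log2 fold change 1.08 ± 0.44, adjusted p = 0.0359) passed on few reads. CXCL2 gave a log2 fold change of only 0.42 without the pair lacking TNFα. CXCL1 (log2 fold change 1.80 ± 0.51, adjusted p = 0.00312) gave 1.57 without that pair and did not pass with the spread estimated from 8 or 12 libraries. CXCL8, the interleukin 8 gene, had 6, 15, 6 and 5 reads and was not tested. TNFAIP3, the deubiquitinase A20, had 63.8 and 76.5 without CPT and 53.1 and 62.9 with CPT (log2 fold change -0.29 ± 0.20, adjusted p = 0.233). BIRC2, an inhibitor of apoptosis, fell (-0.90 ± 0.08). Of the 8 subunit and IKK genes, REL fell (log2 fold change -1.39 ± 0.16, adjusted p = 4.95e-09), from 166 to 75.7 and from 216 to 59.4, IKBKB fell by 0.27 on the log2 scale, and RELA itself rose by 0.23 ± 0.07 (adjusted p = 0.00868). The calls of RELA and TOP1 were lost by DESeq2 and without the TNFα term.

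Lists of housekeeping genes shifted by small and even amounts. Of 76 cytosolic ribosomal protein genes tested, 69 were raised and 0 lowered, with a median of 0.32, and 74 and 75 of them were higher with CPT in the pairs without and with TNFα. Genes of the nuclear-encoded respiratory chain had 65 of 76 raised and 1 lowered, NDUFV3 (-0.51 ± 0.07), at a median of 0.28. UQCRB, a complex III subunit, had 2056 and 2088 without CPT and 2723 and 3040 with CPT (log2 fold change 0.45 ± 0.05, adjusted p = 8.54e-10). RPS27 (1.18 ± 0.32) and RPS10 (1.01 ± 0.32) exceeded the others of their list but did not pass the DESeq2 test, RPS10 gave 0.42 without the pair lacking TNFα, and ribosomal protein genes have many pseudogene copies that could share reads. These medians are small beside those of the histone or immediate early genes and compare with a background of 24.7% raised. They are shares of scaled libraries, so they do not show that the amount of these transcripts per cell rose.

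Cell cycle lists had small medians. Among 41 G1/S and replication genes, 16 rose and 13 fell (39.0% and 31.7%, beside 24.7% and 27.9% of all genes, median 0.04), and the falls of E2F3 (-1.10 ± 0.08), CDC25A (-0.99 ± 0.07) and E2F2 (-0.87 ± 0.07) were the largest. CDC25A, the phosphatase that activates CDK2, went from 1499 to 767 and from 1446 to 729.9. Of 33 G2/M genes, 3 rose and 15 fell (9.09% and 45.5%, median -0.09), led by PLK4 (-0.76 ± 0.06), CENPE (-0.67 ± 0.06) and AURKA (-0.65 ± 0.06).

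In the integrated stress response list, 3 of 17 rose and 7 fell (17.6% and 41.2%, beside 24.7% and 27.9% of all genes). CHAC1 (log2 fold change -1.83 ± 0.16, adjusted p = 8.52e-12), TRIB3 (log2 fold change -1.41 ± 0.07, adjusted p = 1.19e-18) and STC2 (log2 fold change -1.04 ± 0.06, adjusted p = 3.77e-16), effectors downstream of ATF4, fell, and TRIB3 went from 1353 to 499 and from 1169 to 469.7. PPP1R15A, the phosphatase subunit GADD34, rose in the clone (log2 fold change 0.90 ± 0.07, adjusted p = 2.66e-13), against -0.24 in WT cells. Heat shock protein genes had 8 of 18 raised and 2 lowered (44.4% and 11.1%) at a median of 0.15, with HSPB1 at 0.47 ± 0.05 and DNAJB1 at -0.29 ± 0.04. Interferon-stimulated genes had 7 of 19 raised and 5 lowered (36.8% and 26.3%), the second share near that of all genes. IRF7, an interferon regulator, had 114 and 112 without CPT and 368 and 330.0 with CPT (log2 fold change 1.63 ± 0.12, adjusted p = 5.71e-14), and IFIT3 fell (-0.76 ± 0.19).

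Small nucleolar and Cajal body RNA genes, which mostly lie in introns of host genes, had 64 of 196 raised and 28 lowered (32.7% and 14.3%, beside 24.7% and 27.9% of all genes). SNORD95 went from 44.9 to 183 and from 32.3 to 196 (log2 fold change 2.17 ± 0.17, adjusted p = 5.93e-13), SNORA75 from 117 to 24.2 and from 95.2 to 27.9 (log2 fold change -2.12 ± 0.22, adjusted p = 3.06e-10). Named antisense genes had 119 of 320 raised and 30 lowered (37.2% and 9.38%, median 0.36). Among those with at least 20 reads on average, SMC2-AS1 (4.53 ± 0.36), FAS-AS1 (4.43 ± 0.49), CACNA1G-AS1 (3.55 ± 0.43) and ZNF252P-AS1 (2.69 ± 0.34) changed most, but without strand these reads cannot be told apart from those of the sense partner. Of the colon epithelial markers, 4 of 7 rose and CDX2, an intestinal transcription factor, fell (log2 fold change -0.69 ± 0.11, adjusted p = 1.39e-06). COL1A1 (1.08 ± 0.15), ACTA2 (0.67 ± 0.24) and CD68 (0.32 ± 0.10) rose among the 5 tested markers of other cell types, as did CD14 on 2, 21, 0 and 7 reads.

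**Figure D3:**
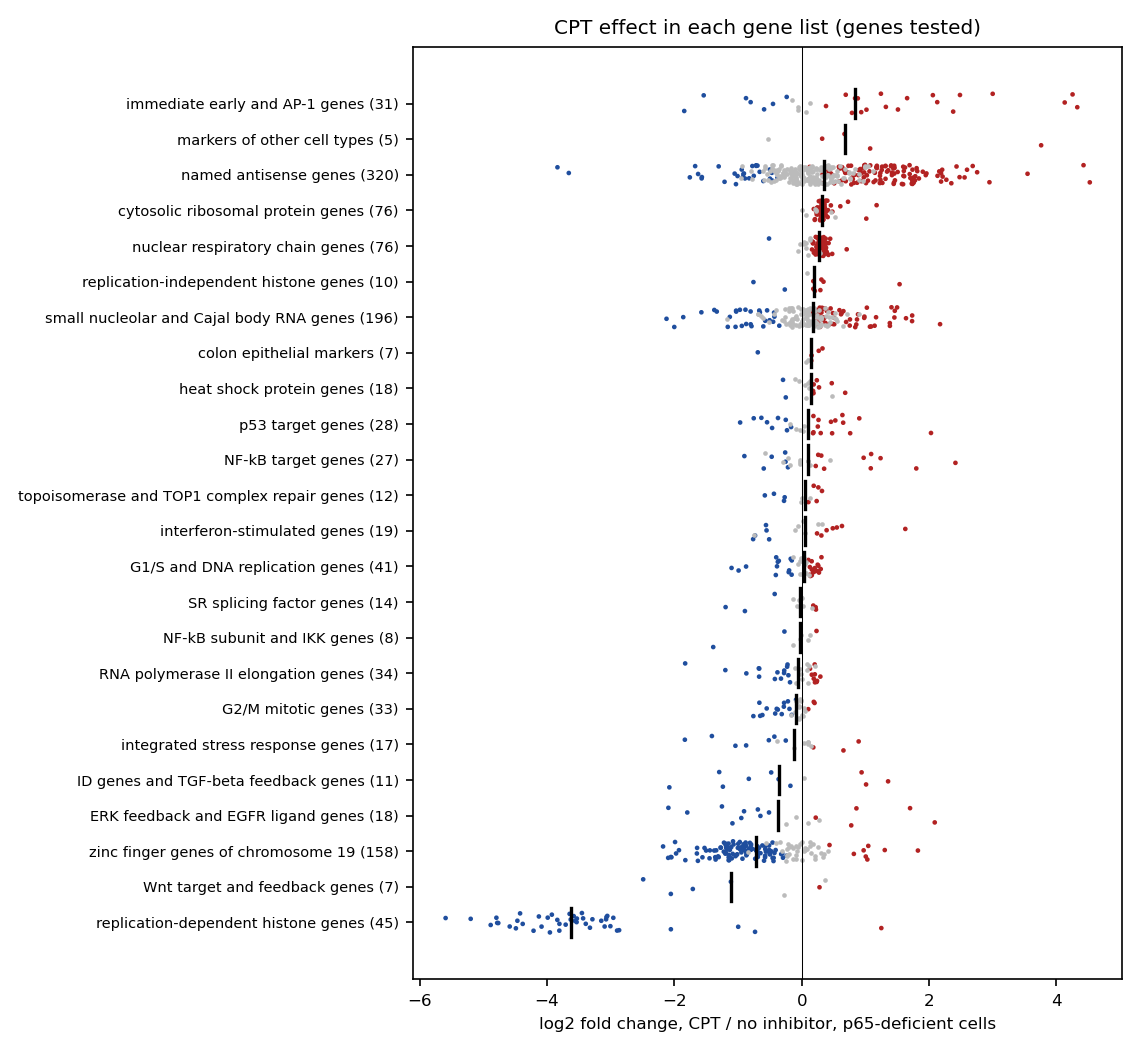
Log2 fold change of CPT against no inhibitor in the 4 p65-deficient libraries for each tested member of the 24 gene lists, 1 point a gene (red raised, blue lowered, grey not past an adjusted p of 0.05; vertical position within a row is arbitrary); black bars are medians and numbers in parentheses genes tested. Replication-dependent histone genes lie far to the left at a median of -3.63, and immediate early genes have the highest median, 0.84.

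Fold changes were lower in genes of longer genomic span. Among 13502 tested genes with 1 locus and no histone gene, those under 10 kb had a median of 0.22, with 44.9% raised and 15.9% lowered, and those of 400 kb or more a median of -0.19, with 5.11% raised and 35.2% lowered. The medians between were 0.08 (10 to 20 kb), -0.03 (20 to 50 kb), -0.12 (50 to 100 kb), -0.15 (100 to 200 kb) and -0.17 (200 to 400 kb). Each pair alone gave a similar fall, from 0.23 to -0.15 without TNFα and from 0.24 to -0.17 with TNFα, and WT cells went from 0.14 to -0.15. The exonic length moved with the span: at an exonic length of 2 to 4 kb the medians ran from 0.17 under 10 kb to -0.09 at 50 to 100 kb and at 200 to 400 kb, and the 30 genes of 400 kb or more had -0.03, so that within this range the medians did not fall further past 100 kb. Genes with 1 exon had a median of 0.21 and those with more than 20 exons -0.07. Genes are not replicates, so these medians carry no test.

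**Figure D4:**
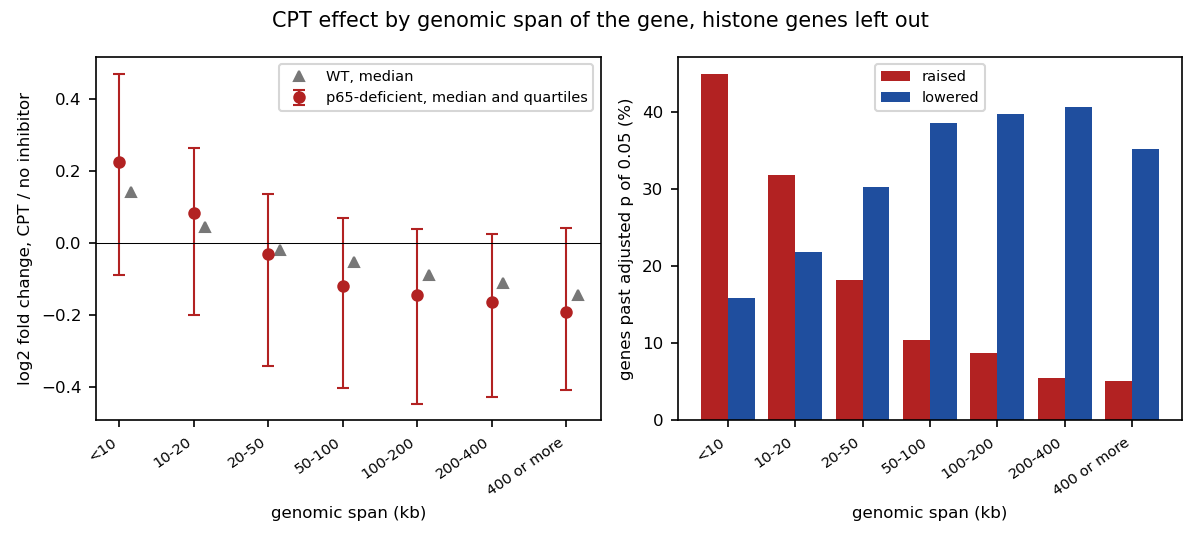
Left, median log2 fold change of CPT against no inhibitor by genomic span, with quartiles as bars for the p65-deficient cells and WT medians as triangles; right, percentage of genes raised or lowered in the p65-deficient cells at an adjusted p below 0.05. The median passes from 0.22 in the shortest to -0.19 in the longest genes and the raised share from 44.9% to 5.11%.

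Much of the response was shared with WT cells. In a fit on the 4 WT libraries, 2438 of 14125 genes were raised and 3407 lowered (17.3% and 24.1%). Among the 13569 genes tested in both, 1566 were raised in both lines, 46.8% of the 3350 raised in the clone and 68.8% of the 2277 raised in WT cells. Lowered in both were 2693, 70.7% of the 3809 of the clone and 80.1% of the 3364 of WT cells. Only 56 genes raised in the clone were lowered in WT cells, and 21 the reverse. Over 11426 genes with a mean of at least 50 reads, the log2 fold changes of the lines correlated with Pearson's r of 0.853 and Spearman's rho of 0.757 across genes. FOS (4.33 in the clone and 4.25 in WT cells), SGK1 (3.80 and 3.75) and HIST1H2BJ (-4.89 and -4.94) had close values, with differences of 0.05 ± 0.14, 0.03 ± 0.24 and 0.03 ± 0.10 in the fit on 8 libraries. Their adjusted p-values for the difference were 0.888, 0.969 and 0.899.

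The CPT effect itself differed between the lines at 696 genes. By the test of the interaction of cell line and CPT on 8 libraries, it was higher in the clone at 349 of 14573 genes (2.39%) and lower at 347 (2.38%), 79 and 45 of them by more than 2-fold. Of the 349, 172 were raised in the clone and 228 were lowered in WT cells, with 51 in both sets. Of the 347, 282 were lowered in the clone. DESeq2 called 98 and 29, and a fit without the TNFα term 188 and 155. SERTAD1, a CDK4-binding regulator, had 366 and 328 without CPT and 1984 and 1605 with CPT in the clone, and 776, 694, 756 and 816 in WT cells, with a log2 fold change of 2.37 in the clone and -0.04 in WT cells (difference 2.38 ± 0.12, adjusted p = 1.5e-09). CSRNP1, an AXIN1-induced nuclear protein, went from 179.6 to 389 and from 212 to 335 in the clone but from 580.2 to 146 and from 585 to 183 in WT cells (difference 2.75 ± 0.17, adjusted p = 3.5e-08). Both genes thus ended high in the clone and low or level in WT cells at both TNFα times.

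For the 4 NF-κB targets described next, the difference between the lines was larger with TNFα. In WT cells with TNFα their levels were high without CPT and lower with it. NUAK2, an AMPK-related kinase, stood at 68.1 and 54.4 without CPT and 81.1 and 43.7 with CPT in the clone, and at 148, 39.9, 1200 and 97.0 in WT cells (difference 3.27 ± 0.40, adjusted p = 9.07e-05). TNFAIP3 had 93.9, 44.0, 1102 and 151 there (difference 2.17 ± 0.41, adjusted p = 0.00471). CXCL8, with 32 reads in all 4 libraries of the clone, had 7.9, 12.5, 675 and 75.9 in WT cells (difference 3.67 ± 0.98, adjusted p = 0.0386), and the chemokine gene CXCL1, with 7, 24, 3 and 9 reads in the clone, 3.9, 16.6, 296 and 78.1 (difference 3.33 ± 0.89, adjusted p = 0.0387). The difference of CXCL1 was -0.15 without and 3.55 with TNFα, whereas that of NUAK2 was 2.15 already without TNFα and 3.31 with it. The calls of these 4 genes were lost by DESeq2 and without the TNFα term. NFKBIA and CXCL2 did not pass (1.42 ± 0.44 and 2.17 ± 0.62, adjusted p = 0.0715 and 0.0544). Of the 30 NF-κB targets tested, 12 were higher and 0 lower, and of the 32 immediate early genes 17 were higher and 2 lower, beside 2.39% and 2.38% of all genes. KLF10 (1.66), ATF3 (1.66), NR4A1 (1.30) and CYR61 (2.05) were among the 17, and ARC (-0.81) was 1 of the 2. In the clone alone, 27 NF-κB targets were tested. CXCL8 was not among them and passed the filter of the 8-library fit through its WT reads. Its difference therefore reflects the WT levels and is no separate result about the clone. The same holds for the count of 12, which takes in genes that were high in WT cells with TNFα. The difference of NFKBIZ, for example, was 0.28 without and 2.92 with TNFα.

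Among genes with a lower effect in the clone, 5 are described. ZNF572 had 86.3 and 98.6 without CPT and 53.8 and 78.6 with CPT in the clone and rose in WT cells from 44.0 to 106 and from 45.5 to 94.1 (difference -1.73 ± 0.24, adjusted p = 0.000386). PKDREJ rose in both lines, by 2.83 in the clone and 4.32 in WT cells (difference -1.52 ± 0.42, adjusted p = 0.0462), and B3GALT4 by 0.84 and 2.20 (difference -1.38 ± 0.37, adjusted p = 0.0387). The noncoding genes LOC105274304 (-1.38 ± 0.28) and LOC283335 (-1.35 ± 0.30) were the other two (adjusted p = 0.00934 and 0.0151). The calls of all 5 were lost by DESeq2. The clone is 1 line with 1 library per condition, so p65 and other properties of this clone cannot be told apart.

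**Figure D5:**
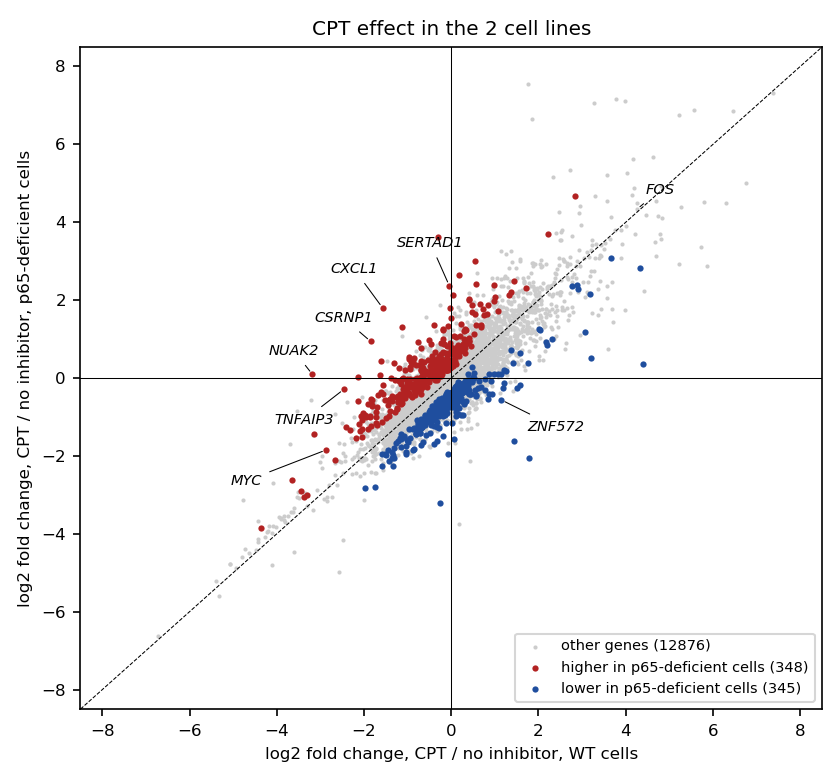
Log2 fold change of CPT against no inhibitor in WT cells (x axis) and in p65-deficient cells (y axis) for the 13569 genes tested in both, 1 point a gene; the dashed line marks equal effects and colours mark genes past an adjusted p of 0.05 for the difference. SERTAD1, CSRNP1, NUAK2 and CXCL1 lie above the line, FOS lies close to it and ZNF572 below it.

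Some genes responded to CPT unequally in the 2 pairs of the clone. Counting intervals of the 2 ratios did not overlap for 577 of the 11172 genes with at least 50 reads on average, 161 of them with opposite signs, and these intervals cover counting error only. JUN stood at 154 and 1004 without CPT and 1398 and 2389 with CPT, a log2 ratio of 3.19 (2.98 to 3.39) without TNFα and 1.25 (1.11 to 1.39) with it. The library with TNFα and no inhibitor already stood well above the library with neither. ATF3, a stress-induced AP-1 family factor, had 219.6 and 459 without CPT and 612 and 524 with CPT, with ratios of 1.48 and 0.19. NR4A2, an orphan nuclear receptor, gave 1.43 and 0.09. With 1 library per condition this inequality has no test, and TNFα and a possible difference in total time in CPT cannot be told apart.

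ICRF193, a TOP2 inhibitor, used the same libraries without inhibitor, so values are set side by side only. Without TNFα the ICRF193 library had 8755001 reads counted against 20524958 without inhibitor, so this pair was not matched in depth. For FOS the log2 ratios were -0.03 and 0.02 with ICRF193 and 4.33 and 4.38 with CPT. Replication-dependent histone genes had medians of -0.23 and 0.00 against -3.63 and -3.64, and SERTAD1 had -0.01 and 0.37 against 2.44 and 2.29.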

How the data were processed

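RNA was sequenced from 12 HCT116 libraries, 1 per condition, with a stranded total RNA kit. The deposited values are raw counts of reads per gene symbol, which the authors made, per the labels and file headers, with Trimmomatic, STAR (hg19) and featureCounts 1.5.0. Counting used no strand option over 26364 symbols, so sense and antisense reads were summed. Groups came from the labels.

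The main test was edgeR 4.0.16 (R 4.3.3) quasi-likelihood on the 4 p65-deficient libraries, with TMM scaling, filterByExpr, TNFα as a term, Benjamini-Hochberg adjustment at 0.05 and 1 residual degree of freedom. With 1 library per condition, p-values rest on the spread between the 2 pairs, estimated with help from all genes together. A gene can thus pass although its 2 pairs differ. A fit on 8 libraries, with 2 residual degrees of freedom, tested the difference from WT cells. Log2 fold changes are given ± SE, derived from the fold change and the F statistic. Ratios within a pair used genes with at least 20 reads and exact 95% binomial intervals, which cover counting error only. Alternatives were DESeq2 1.42.0, other scalings, filters and spreads, and each pair left out. A fit without a pair kept the other pair and the 4 WT libraries, which alone supplied its spread. The scripts were tested on simulated data.

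Genes named were the 8 raised and 8 lowered most (mean of at least 50 reads, both pairs on the same side), up to 4 per list (mean of at least 20), up to 5 per direction of difference between lines, and RELA, TOP1, CXCL8, CXCL2, NFKBIA, TNFAIP3 and ICAM1. Further list members were picked after their values were seen. The comparison, members and lists were chosen with earlier results of these data known. Promoters were matched for 10725 of 13700 tested genes (78.3%), too few for the planned share of motifs among raised and lowered genes, which is void, so the background is the whole RefSeq promoter table on GRCh38.p14. Gene coordinates are hg19 as in the files. One gene is not reported here.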

Additional observations from a re-analysis of the deposited data

Results flagged for a closer look

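The CPT effect differed between the lines by a test of the interaction itself, with 349 genes higher and 347 lower in p65-deficient than in WT cells. The named differences (log2, p65-deficient minus WT) that were higher were CXCL8 (3.67), CXCL1 (3.33), NUAK2 (3.27), CSRNP1 (2.75) and SERTAD1 (2.38). Those that were lower were ZNF572 (-1.73), PKDREJ (-1.52), B3GALT4 (-1.38), LOC105274304 (-1.38) and LOC283335 (-1.35). Of these 10, DESeq2 kept the calls of CSRNP1 and SERTAD1. CXCL8 was too low to test in the clone alone and entered through its WT reads. With 1 library per condition, no group could be screened for a stray sample.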

How the results depend on the processing

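No paired analysis was possible because every condition has 1 library and the groups share 1 replicate number, beyond the TNFα term, which sets each CPT library against the one without inhibitor at the same TNFα time. Without that term 2374 genes were raised and 3119 lowered. In the 4-library fit, 3390 raised and 3826 lowered genes became 1271 and 1879 by DESeq2's Wald test and 710 and 720 past 2-fold. Leaving out a pair gave 1417 to 2082 raised and 2394 to 2767 lowered genes. For the difference between lines, 349 higher and 347 lower genes became 98 and 29 by DESeq2, 188 and 155 without the TNFα term, and 609 higher with no filter on low counts. The split was 450 and 307 with DESeq2 size factors, 314 and 423 with total counts, and 464 and 253 at a mean of at least 20 reads. Within pairs, genes more than 2-fold higher numbered 363 (no TNFα) and 172 (TNFα) at a minimum of 50 reads, and 845 (TNFα) when any of the 12 libraries could supply 20 reads. The median of genes under 10 kb minus that of genes of 200 kb or more was 0.393, and 0.345 at a mean count of at least 100, while exonic lengths under 1 kb minus 8 kb or more gave 0.473. With 1 pair left out, HCRTR1 ran from -2.58 to 1.58. The difference of CXCL1 was -0.146 without and 3.548 with TNFα. The list median of integrated stress response genes was -0.095 and 0.014, and of SR splicing factor genes -0.032 and 0.02, in the pairs without and with TNFα. RELA and TOP1 lost their calls by DESeq2 and without the TNFα term. Depth limits genes such as CXCL8, CXCL1 and ICAM1, which had few reads in the clone. The cause of these shifts was not tested.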
